A study of Mus musculus with 6 samples.

Results

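The GIMAP genes (GTPases of the immunity-associated protein family) were read out in RNA sequencing of Tfh cells, the helper T cells of germinal centers. Every row of the table whose symbol starts with *Gimap* was taken. Of 14744 gene symbols, 9 met this rule: the 8 protein-coding genes *Gimap1*, *Gimap3*, *Gimap4*, *Gimap5*, *Gimap6*, *Gimap7*, *Gimap8* and *Gimap9*, and the antisense RNA *Gimap1os*, which is kept apart below. The family was singled out with the difference between the groups already known, *Gimap7* in particular, so the levels in the 2 groups are given as a description, with no test. All 9 passed the filter on low values. Tfh cells were sorted as CD4+B220-CD44+PD-1+CXCR5+ from mesenteric lymph nodes (MLNs), at 10000 to 30000 cells a sample. One group, 3 libraries, came from WT mice, which in the study are littermates that carry Cd4-Cre. The other, 3 libraries titled as *Bach2* knockout and called Bach2-cKO here, came from *Bach2* fl/fl Cd4-cre mice. Their Cre, under the *Cd4* promoter, acts in every T cell that has passed a CD4-expressing stage and not in Tfh cells alone. The labels give the strain as C57BL/6 and the study's methods as C57BL/6J, and the age given with these data is 2 to 3 months. The labels do not say whether libraries of a group came from separate mice, so the spread given here is between libraries and may be technical.

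GIMAP proteins are small GTP-binding proteins that sit on the membranes of lysosomes, the Golgi, mitochondria and lipid droplets, and their GTP-binding domain is related to that of septins. They are found mainly in lymphocytes, where they are known for their part in survival and in the maintenance of naive T cells: loss of GIMAP5 in mice and rats leaves few T cells. Some members bind GTP and assemble into filaments, while others act on the GTP hydrolysis of their relatives.

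The libraries held 7361229 to 8135325 normalized read counts. WT replicate 1 stood apart in gene detection, where 11648 genes had a value above 0 and the remaining 5 libraries had 13111 to 13567 such genes. *Bach2* itself went against the labels. Its values were 233, 222 and 105 normalized counts in the WT libraries and 399, 763 and 591 in the libraries labelled Bach2-cKO, so the latter held more. This value sums reads over all exons, and reads over the deleted part alone were not analysed here. *Foxp3* and *Il17f*, whose log2 fold changes are given with the lists below, were lower in every library labelled Bach2-cKO than in every WT library. The groups are named by their labels throughout. T cell markers were abundant (*Cd3e*, 4534 to 11924 normalized counts) and all 8 Tfh markers passed the filter. Differences between the groups were fitted on log2(value + 1) with limma over 11296 genes, those that reached 10 normalized counts in 3 or more libraries. The log2 fold change is Bach2-cKO minus WT on that scale and understates the change of low genes. With the thresholds of adjusted p (0.01) and of fold change (2) limma called 0 of the 11296 genes (0.0%). At an unadjusted p under 0.05 it placed 1157 genes lower (10.2%) and 1144 higher (10.1%).

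The family forms 1 cluster on chromosome 6, chr6:48647234-48770851 in GRCm38, which spans 123.6 kb. Along the chromosome the genes run *Gimap8*, *Gimap9*, *Gimap4*, *Gimap6*, *Gimap7*, *Gimap1os*, *Gimap1*, *Gimap5* and *Gimap3*, and *Gimap6*, *Gimap1os* and *Gimap3* lie on the minus strand. Reads cannot be assigned with equal certainty to all of them. *Gimap1* and *Gimap1os* share 1107 exonic bases on opposite strands, 36.0% of those of *Gimap1*, and whether the counting used strand is not given in the sources used here. The transcripts of *Gimap3* and *Gimap5* are similar: 190 of the 2528 different 50-base stretches of *Gimap3* (7.52%) also occur in *Gimap5*. No other pair of members shared a 50-base stretch. The read-through model *Gm28053*, which is not a row of the table used here, shares 198 exonic bases with *Gimap1* (6.44%), 153 with *Gimap5* (3.69%) and 81 with *Gimap7* (3.48%) on the same strand.

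The sequences before the starts of *Gimap7* and *Gimap4*, with the lowest log2 fold changes of the family, and of *Gimap8*, with the highest, are shown because these genes lie in 1 cluster and differ most. Each covers 250 to 51 bases before the RefSeq start on the plus strand of GRCm38.p6, 200 bases long, and capitals mark the letters of the motif TGTGGT or its reverse complement ACCACA, the core bound by RUNX factors. The windows are chr6:48718371-48718570 for *Gimap7*, chr6:48684328-48684527 for *Gimap4* and chr6:48646984-48647183 for *Gimap8* (the first of its 2 listed starts), and the sequences read 5′ to 3′:
Gimap7: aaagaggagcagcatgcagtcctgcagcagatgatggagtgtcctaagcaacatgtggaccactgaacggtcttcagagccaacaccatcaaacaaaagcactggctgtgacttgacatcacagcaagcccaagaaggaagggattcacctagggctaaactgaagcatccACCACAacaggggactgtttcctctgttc
Gimap4: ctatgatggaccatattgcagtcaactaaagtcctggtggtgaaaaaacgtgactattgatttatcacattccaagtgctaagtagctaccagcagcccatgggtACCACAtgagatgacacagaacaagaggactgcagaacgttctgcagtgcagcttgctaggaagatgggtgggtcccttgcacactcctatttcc
Gimap8: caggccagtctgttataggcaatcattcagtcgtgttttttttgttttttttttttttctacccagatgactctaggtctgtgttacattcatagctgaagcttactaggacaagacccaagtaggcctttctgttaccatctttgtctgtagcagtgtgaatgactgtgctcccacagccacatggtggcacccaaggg
On either strand, TGTGGT was found in the windows of 3 of the 8 genes, *Gimap1*, *Gimap4* and *Gimap7*, against 11.6% of 32851 RefSeq promoter windows of the same length. The ETS core GGAAGT was found in 1, *Gimap5*, against 14.6% of all windows. The letters TGAGTCA, a core shared by AP-1 and BACH factors, occurred in 0 of the 8 and in 3.61% of all windows. The GC box GGGCGG occurred in 0 of the 8 and in 24.6% of all windows. A match of letters is no binding site, and a missing match covers these 200 bases alone.

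*Gimap7* had the largest difference of the family. It encodes a GTPase known for stimulating GTP hydrolysis by its relatives. The WT libraries held 2837, 3263 and 4379 normalized counts and the Bach2-cKO libraries 1002, 1484 and 1574. All 3 Bach2-cKO libraries lay below all 3 WT libraries, and even the highest of them was well under the lowest WT library. The means were 3493 ± 796 and 1353 ± 308 (SD, n = 3 each), a 2.58-fold lower mean, and the log2 fold change was -1.37 (SE 0.24). Of all tested genes 3.02% had a log2 fold change as low or lower. Leaving out 1 library at a time gave -1.51 to -1.17.

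*Gimap4*, a GTPase linked to the pace of T cell death, had the highest mean normalized count of the members in WT libraries. In Bach2-cKO libraries its mean of 4942 was below the 5033 of *Gimap3*. The values of *Gimap4* were 8956, 10643 and 12774 normalized counts in WT and 3686, 4619 and 6519 in Bach2-cKO libraries. Again the groups did not overlap, and every Bach2-cKO library was the lower. The means were 10791 ± 1914 and 4942 ± 1444 (SD, n = 3 each), 2.18-fold lower, with a log2 fold change of -1.15 (SE 0.25). A value as low or lower was found in 4.90% of tested genes. *Gimap7* and *Gimap4* were the 2 of 8 members in which every Bach2-cKO library lay below every WT library. Over all tested genes this held for 1383, or 12.2%, and since the family was chosen on this contrast the count is only descriptive.

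**Figure D1:**
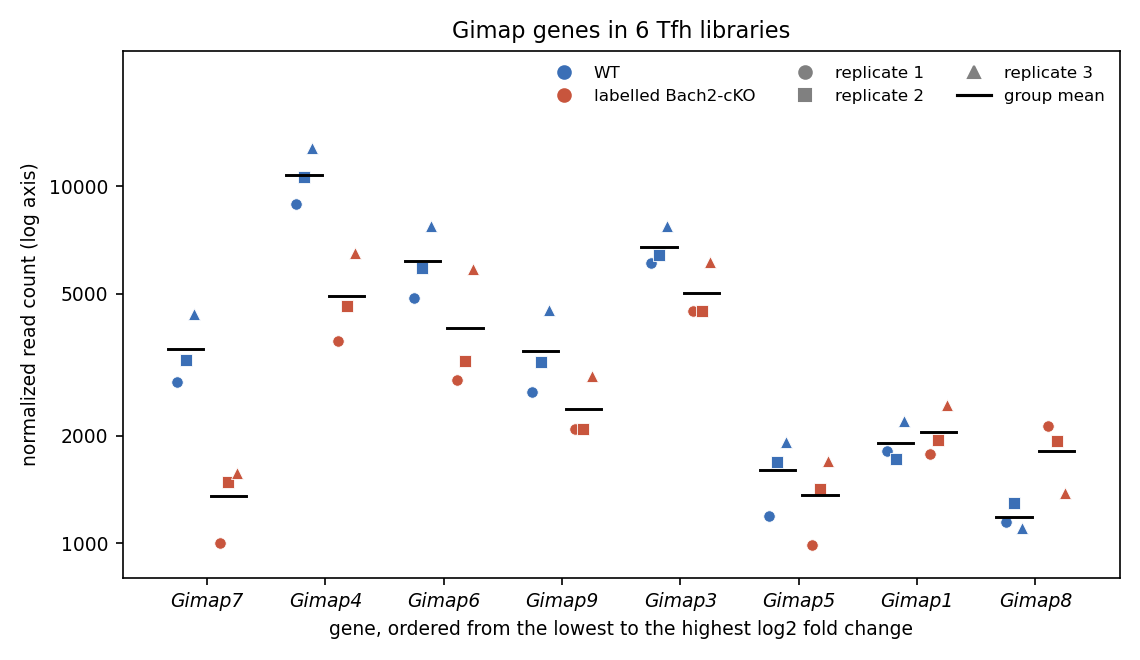
Normalized read count (log axis) of the 8 *Gimap* genes in each library, ordered by log2 fold change; colours give the group, symbols the replicate number and black lines the group mean (n = 3). The groups do not overlap in *Gimap7*, *Gimap4* and *Gimap8*, lower in the first pair and higher in *Gimap8* in the Bach2-cKO libraries.

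In 4 members the Bach2-cKO mean was lower but the groups overlapped. *Gimap6*, which binds an ATG8-family protein of autophagy, was at 4857, 5917 and 7771 normalized counts in WT and 2872, 3246 and 5887 in Bach2-cKO libraries. Only Bach2-cKO replicate 3 reached into the WT range, and its log2 fold change was -0.67 (SE 0.29). Leaving out 1 library at a time gave -0.99, without that library, to -0.47, without Bach2-cKO replicate 1. *Gimap9*, one of the less studied members, was at 2648, 3215 and 4494 in WT and 2085, 2087 and 2942 in Bach2-cKO libraries. Here too replicate 3 was the Bach2-cKO library above the lowest WT value, and the log2 fold change was -0.53 (SE 0.24). Leaving out 1 library at a time gave -0.70 to -0.32, the latter without WT replicate 3.

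*Gimap3* and *Gimap5* are close relatives that both bind members of the BCL2 family. *Gimap3* was at 6108, 6439 and 7731 normalized counts in WT and 4465, 4489 and 6144 in Bach2-cKO libraries. The overlap was slight, as Bach2-cKO replicate 3 passed only WT replicate 1, and the log2 fold change was -0.43 (SE 0.20). *Gimap5*, the member whose loss depletes T cells, was at 1193, 1694 and 1920 in WT and 989, 1418 and 1697 in Bach2-cKO libraries. Its groups overlapped over most of their range, with a log2 fold change of -0.23 (SE 0.26), and it ran from -0.43 without WT replicate 1 to -0.02 without Bach2-cKO replicate 1. Without WT replicate 3 it was -0.09. The stretches that *Gimap3* and *Gimap5* share leave the division of reads between them uncertain.

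*Gimap1* and *Gimap8* did not have lower means. *Gimap1*, needed for the development and survival of mature lymphocytes, was at 1817, 1717 and 2201 normalized counts in WT and 1779, 1947 and 2442 in Bach2-cKO libraries. The ranges lay almost on top of each other, the log2 fold change was 0.10 (SE 0.20), and its sign turned to -0.03 without Bach2-cKO replicate 3. *Gimap8*, which is known to carry several GTP-binding domains in 1 protein, was at 1149, 1297 and 1100 in WT and 2130, 1933 and 1380 in Bach2-cKO libraries. Every Bach2-cKO library was above every WT library, which held for 1 of 8 members and for 1654 of the tested genes (14.6%). Its means were 1182 ± 102 and 1814 ± 389 (SD, n = 3 each) and its log2 fold change 0.60 (SE 0.22). *Gimap1os* was at 154, 442 and 455 in WT and 411, 435 and 461 in Bach2-cKO libraries. Its log2 fold change of 0.47 (SE 0.39) rested on WT replicate 1, and without that library it was -0.04.

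Over the 8 genes the median log2 fold change was -0.48, against 0.08 over all tested genes, and 6 of 8 lay below 0, against 45.2% of all tested genes. Leaving out 1 library at a time moved the family's median between -0.64 and -0.33. The difference moved with transcript length across the table: over 11266 genes with a known length Spearman's rho between length and log2 fold change was 0.32, as a description across genes. The members range from 1269 bases in the longest transcript of *Gimap7* to 3179 in *Gimap6* and 3160 in *Gimap8*. With the dependence of the values on length and GC content taken out of each library by loess, a setting added after the data were seen, *Gimap7* was at -1.12, *Gimap4* at -0.87, *Gimap6* at -0.68, *Gimap3* at -0.31, *Gimap9* at -0.27, *Gimap5* at -0.08, *Gimap1* at 0.15 and *Gimap8* at 0.75. No sign changed, and *Gimap7* and *Gimap8* remained the lowest and the highest member. That setting moved the median of all genes from 0.08 to -0.05.

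**Figure D2:**
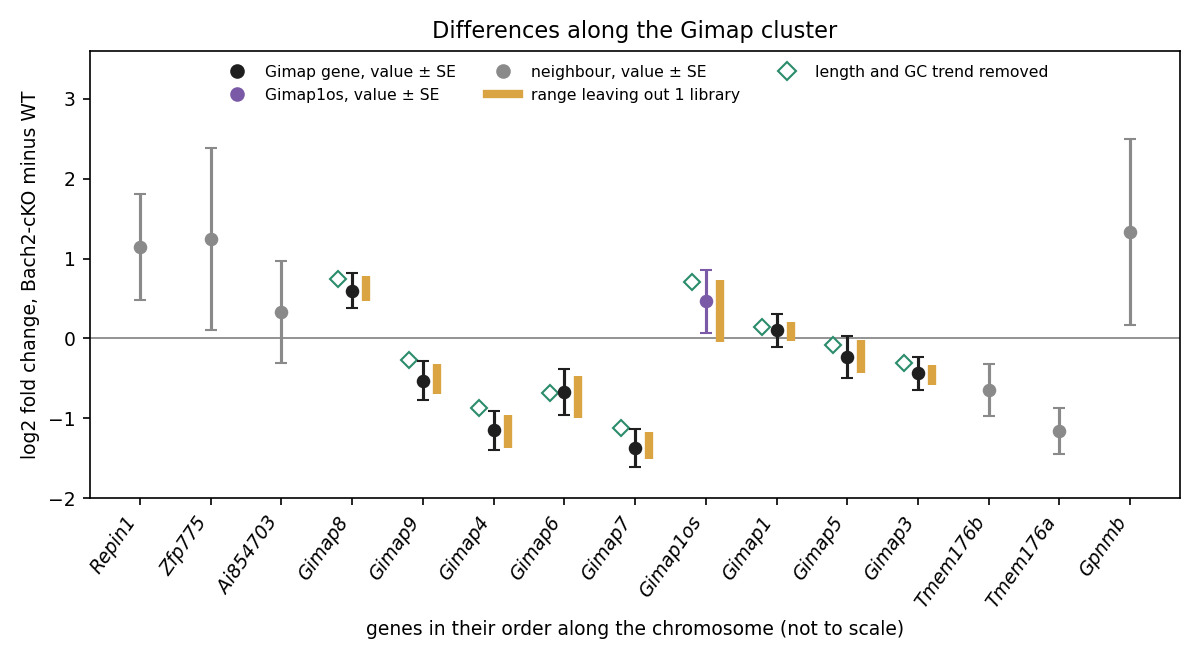
Log2 fold change, Bach2-cKO minus WT, of the *Gimap* genes and of the 3 tested neighbours on each side, in chromosome order and not to scale; points are fitted values with SE over 3 libraries a group, bars the range when 1 library is left out, open diamonds the values with the length and GC trend removed. *Gimap8*, first in the cluster, lies above 0 at 0.60, while *Gimap9* to *Gimap7* and *Gimap5* and *Gimap3* lie below 0.

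The neighbours on either side were not alike. After the cluster, *Tmem176a*, a membrane protein gene 70.6 kb away, was at 394, 590 and 359 normalized counts in WT and 228, 173 and 187 in Bach2-cKO libraries. These groups did not overlap, and the log2 fold change was -1.16 (SE 0.29). *Tmem176b*, its partner 63.0 kb from the cluster, overlapped between groups, with -0.65 (SE 0.33). The genes before the cluster, *Ai854703*, *Zfp775* and *Repin1*, and the more distant *Gpnmb* after it had positive log2 fold changes of 0.33, 1.24, 1.14 and 1.33. *Repin1* did not overlap between groups, at 14.1, 23.6 and 12.5 normalized counts in WT and 34.0, 46.2 and 31.7 in Bach2-cKO libraries, while the other 3 did. All 4 were below 80 normalized counts in every library, and their SEs ran from 0.64 to 1.17.

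Together the 8 genes held 29565, 34184 and 42370 normalized counts in WT and 19008, 21224 and 28585 in Bach2-cKO libraries, which is 0.379% to 0.521% of all signal in WT and 0.255% to 0.388% in Bach2-cKO libraries. The ranges of the share overlapped by a small margin, between WT replicate 1 and Bach2-cKO replicate 3. In bulk libraries fewer cells of a type and less RNA per cell cannot be told apart.

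Levels of different genes were compared per kb of the longest annotated transcript. In WT libraries the order of mean levels was *Gimap4* (5982 normalized counts per kb), *Gimap3* (3151), *Gimap7* (2753), *Gimap9* (2495), *Gimap6* (1944), *Gimap1* (1185), *Gimap5* (688) and *Gimap8* (374). *Gimap3*, *Gimap7* and *Gimap9* each overlapped the next in this order between libraries, although all 3 WT libraries kept the order. *Gimap4*, *Gimap6*, *Gimap1* and *Gimap5* did not overlap the next. In Bach2-cKO libraries the order was *Gimap4* (2739), *Gimap3* (2346), *Gimap9* (1713), *Gimap1* (1274), *Gimap6* (1259), *Gimap7* (1067), *Gimap5* (588) and *Gimap8* (574). By mean level *Gimap7* was thus at rank 3 in WT and rank 6 in Bach2-cKO libraries, and between Bach2-cKO neighbours only *Gimap7* and *Gimap5* did not overlap. The Bach2-cKO libraries did not all keep this order: *Gimap4* over *Gimap3*, *Gimap1* over *Gimap6* and *Gimap6* over *Gimap7* held in 2 of 3 libraries, and *Gimap5* over *Gimap8* in 1 of 3. The order depends on the transcript taken: with the first listed transcript of each gene, *Gimap6* (1594 bases) moved from rank 5 to rank 2 in WT, *Gimap7* ranked 4 in WT and 6 in Bach2-cKO, and by mean level *Gimap4* stayed first and *Gimap8* last.

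As a share of the summed level per kb, *Gimap4* made up 32.2% ± 0.71 of the family in WT and 23.4% ± 1.86 in Bach2-cKO libraries (SD, n = 3 each). *Gimap7* made up 14.8% ± 0.59 and 9.26% ± 1.39. The shares of *Gimap1* (6.44% ± 0.72 and 11.1% ± 0.53), *Gimap8* (2.07% ± 0.44 and 5.26% ± 2.05), *Gimap3* (17.1% ± 1.16 and 20.4% ± 1.28) and *Gimap5* (3.69% ± 0.38 and 5.06% ± 0.60) were larger in the Bach2-cKO libraries. The shares of *Gimap9* and *Gimap6* overlapped between groups and the others did not. Shares of 1 total depend on each other, so lower levels of *Gimap4* and *Gimap7* alone raise the shares of the rest, and by level only the 3 members named above did not overlap. The ratios of *Gimap7* to its relatives restate the level for which it was singled out and are given as values alone. The log2 ratio of *Gimap7* to *Gimap8* was 1.30, 1.33 and 1.99 in WT and -1.09, -0.38 and 0.19 in Bach2-cKO libraries, and the ratio to *Gimap3* was -1.11, -0.98 and -0.82 against -2.16, -1.60 and -1.96. The ratio to *Gimap4* was -1.66, -1.71 and -1.54 in WT and -1.88, -1.64 and -2.05 in Bach2-cKO libraries, and its ranges overlapped.

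**Figure D3:**
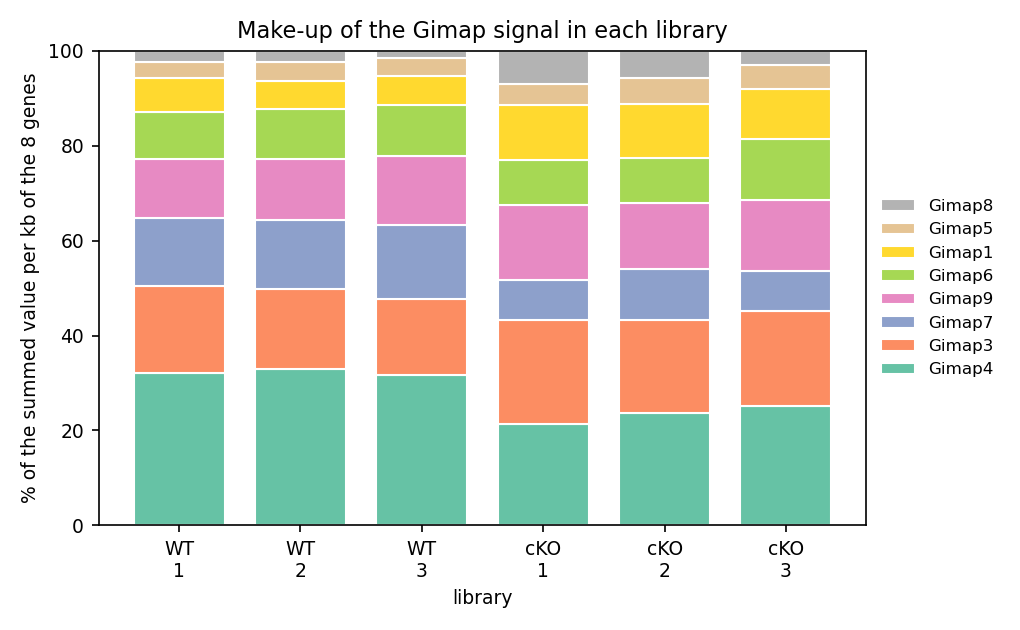
Share of each gene in the summed normalized count per kb of the 8 *Gimap* genes, in percent, 1 stacked bar a library. *Gimap4* takes a mean of 32.2% in WT and 23.4% in Bach2-cKO libraries, and *Gimap8* 2.07% and 5.26%.

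The members also varied together among libraries of 1 group. The deviations of log2(value + 1) from the group means were compared over the 6 libraries, which share depth and amplification, so the correlations are descriptions. In the 21 pairs without *Gimap8* Pearson's r was between 0.75 and 0.985, with a median of 0.893. In the 7 pairs with *Gimap8* it was between -0.914 and -0.609. WT replicate 1 was the lowest WT library for 6 of 8 genes and WT replicate 3 the highest for 7 of 8. Bach2-cKO replicate 1 was the lowest of its group for 7 of 8 and replicate 3 the highest for 7 of 8, and *Gimap8* was the exception in both. After the trend in length and GC content was removed the 21 pairs were between 0.300 and 0.968 and the 7 pairs with *Gimap8* between -0.951 and -0.616, so the signs stayed. Other genes varied with the members too. The deviations of *Gimap4* had an r of 0.984 with the mean of the other 6 members without *Gimap8*, a value that 0.186% of tested genes reached, whereas the 0.879 of *Gimap7* was reached by 3.66%. For *Gimap8* the r was -0.797, and 6.43% of tested genes were as low. These shares are over every tested gene, the members themselves included.

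**Figure D4:**
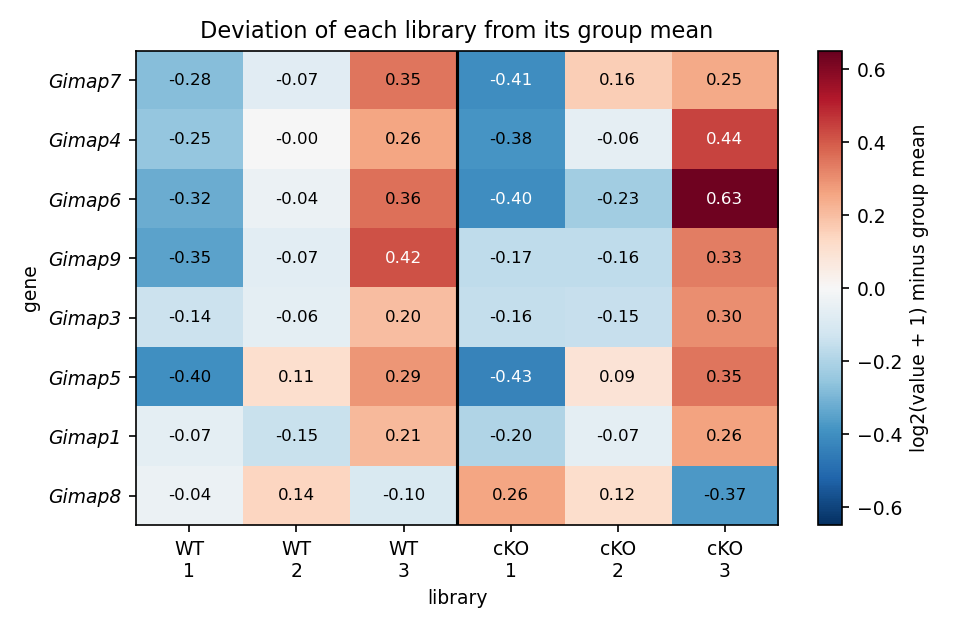
Deviation of log2(value + 1) from the group mean for each of the 8 *Gimap* genes (vertical axis) in each library (horizontal axis); red is above and blue below the mean of the 3 libraries of the group. In 7 genes replicate 3 is the highest of both groups, and in *Gimap8* it is the lowest of both, at -0.10 in WT and -0.37 in Bach2-cKO.

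Over the 6 libraries the mean log2 level of the 8 genes was followed most closely by *Gimap6* (r = 0.975), *Gimap3* and *Gimap9* (both 0.971) and *Gimap4* (0.959). *Gimap7* (0.924) and *Gimap5* (0.852) were next, *Gimap1* had 0.362 and *Gimap8* -0.900. Each gene is part of this mean, and the difference between the groups, on which the family was chosen, enters every r. On deviations from the group means, against the other members without *Gimap8*, *Gimap1* had an r of 0.908. Outside the family the 5 genes most like this mean were *Cd2*, an adhesion receptor of T cells (r = 0.995), *Trbj1-4*, a joining segment of the T cell receptor beta chain (0.995), *Lsm10*, part of the U7 small nuclear ribonucleoprotein (0.993), *Gtf2b*, the general transcription factor TFIIB (0.992), and *Kdelc1*, a protein of the endoplasmic reticulum (0.991). *Cd2* was at 5445, 7100 and 9186 normalized counts in WT and 3019, 4113 and 6013 in Bach2-cKO libraries. *Trbj1-4* was low, at 1.48 to 52.0. An r over 0.9 with the mean was found for 349 tested genes (3.09%), members included, so such likeness was not rare in these 6 libraries.

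Genes tied to GIMAP proteins by known partnership were taken as lists, and 0 of their members passed the limma thresholds. Counts at an unadjusted p under 0.05 are given beside the 10.2% lower and 10.1% higher of all tested genes. Of 9 genes of the BCL2 family and its survival partners 1 was lower and 3 were higher, with a median log2 fold change of 0.17. *Bak1*, which permeabilizes mitochondria, was at 30.3, 41.5 and 33.3 normalized counts in WT and 202, 145 and 85.9 in Bach2-cKO libraries, with 1.94 (SE 0.48) and no overlap, and the chaperone *Hspa8* had -0.78 (SE 0.30). Of 9 ATG8 and autophagy genes 2 were lower and 0 higher, with a median of -0.28. *Lamp1*, a lysosomal membrane protein, had -0.93 (SE 0.21) without overlap, and *Map1lc3a* 0.37 (SE 0.50).

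Of 10 GSK3 and calcium signaling genes 0 were lower and 4 higher, with a median of 0.18. The transcription factor *Nfatc2* had 1.01 (SE 0.32) without overlap, and *Myc* -1.12 (SE 0.62) with overlap. Related GTPases did not move as 1 block either. Of 16 tested GBP and IRG GTPases, interferon-induced relatives, 4 were lower and 1 higher, with a median of -0.15, *Tgtp1* at -1.98 (SE 0.61) without overlap and *Gbp7* at 0.72 (SE 0.28). Of 8 septins 1 was lower and 1 higher, with a median of 0.16. *Sept7* had -0.75 (SE 0.21) without overlap, and *Sept8*, listed at 0 in WT replicate 1, had 1.99 (SE 1.30).

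*Gimap* genes are expressed across naive T cells and other lymphocytes, so markers of those cells are given beside them. The 18 naive and quiescent T cell genes had a median of 0.14, with 2 lower and 3 higher. Their summed level was 27337 to 30532 normalized counts in WT and 29501 to 31075 in Bach2-cKO libraries. The chromatin organizer *Satb1* had 1.76 (SE 0.33) and *Dapl1* -3.49 (SE 0.60), both without overlap. The 11 T cell genes had a median of -0.25, with 3 lower and 2 higher, and their sum was 91078 to 116696 in WT and 74605 to 88524 in Bach2-cKO libraries. Among them *Cd3e* was at 10623, 9648 and 11924 in WT and 4534, 5238 and 6140 in Bach2-cKO libraries, a log2 fold change of -1.02 (SE 0.20), and *Thy1* had 1.15 (SE 0.25). Neither of these overlapped, so T cell surface genes lay on both sides of 0, as the members did.

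The B cell list also had a lower summed range in the Bach2-cKO libraries. Of 12 genes 9 were tested, with a median of -0.80, 4 lower and 0 higher, and the summed level was 17711 to 26645 normalized counts in WT and 7582 to 19470 in Bach2-cKO libraries. Most of the sum came from *Cd74* and the MHC class II genes, with *Cd74* alone at 9236 to 13382 in WT and 3251 to 8453 in Bach2-cKO libraries. Of the defining markers, *Cd79b* was at 112 to 369 in WT and 102 to 145 in Bach2-cKO libraries, with -0.80 (SE 0.44). *Cd79a* was at 19.2 to 208 in WT and 14.7 to 45.0 in Bach2-cKO libraries, with -1.72 (SE 0.86). *Pax5* was at 37.3 to 67.3 in WT and 12.1 to 75.7 in Bach2-cKO libraries, with -0.50 (SE 0.71). *Ms4a1*, at 33.7 to 45.8 in WT and 2.68 to 10.2 in Bach2-cKO libraries, was the only one of these without overlap. *Ebf1* and *Blk* were under the filter, at 0 to 5.61 in WT and 2.96 to 12.7 in Bach2-cKO libraries. The list's part in the *Gimap* values was not tested. The 8 Tfh genes had a median of -0.08 (1 lower, 2 higher), with *Tox2* at 1.10 (SE 0.31) and *Icos* at -1.03 (SE 0.29). The 6 Treg genes had -0.39 (2 lower, 0 higher), with *Foxp3* at -1.76 (SE 0.43) and *Ikzf2* at -0.12 (SE 0.26). The 6 tested Th17 genes had -1.42 (3 lower, 0 higher), with *Il17f* at -4.70 (SE 0.85) and *Rora* at 0.73 (SE 0.39).

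The 9 CD8 T and NK genes had a median of -0.29 (2 lower, 0 higher), with *Eomes* at the low end at -1.80 (SE 0.76) and *Klrd1* at the high end, listed at 0 in WT replicate 1 and at 29.7 to 182 normalized counts in the others. The 8 tested myeloid genes had 0.20 (1 lower, 0 higher), with *Csf1r* at 1.62 (SE 0.84) and *Cd68* at -0.96 (SE 0.38). Their signal was not small. The summed level of the myeloid list was 6621 to 16276 normalized counts in WT and 5498 to 14907 in Bach2-cKO libraries. *Lyz2* alone was at 1848 to 7211 in WT and 1407 to 4395 in Bach2-cKO libraries. In the B cell list *Cd22* had 0.94 (SE 0.55) and *Ms4a1* -2.83 (SE 0.88). Endothelial cells also express *Gimap* genes, and of their 9 markers only *Pecam1* was tested, at 0.03 (SE 0.22). The remaining 8 endothelial markers were under the filter or were not rows of the table. The 12 proliferation genes had -0.33 (3 lower, 1 higher), with *Mcm5* at 0.60 (SE 0.21) and *Ccnb1* at -1.07 (SE 0.45). The 8 tested immediate early genes had 0.28 (0 lower, 1 higher), with *Egr1* at 1.49 (SE 0.38) and *Dusp1* at -0.32 (SE 0.29). The part of these genes in the *Gimap* values was not tested.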

How the data were processed

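The study sorted Tfh cells from 3 WT and 3 Bach2-cKO samples, amplified cDNA with the SMARTer Ultra Low kit and sequenced it on a NextSeq500. The deposited signal is a normalized read count for each of 14744 genes: the authors divided gene counts by a size factor of each library. The paper's methods name Tophat2 and HTSeq, whereas the submitters' processing notes name STAR 2.5.2b, DESeq2 1.20.0, R 3.5.1 and GRCm38, so the aligner is uncertain. Whole reads were recovered for 5 libraries (100.0% of values whole within 0.001), at 5045131 to 10987752 reads. The step of WT replicate 1, 1.01, is too near a power of 10 for the rule used, so its reads were not used.

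log2(value + 1) was fitted with limma 3.58.1 (trended variance, R 4.3.3) over the 11296 genes that reached 10 in 3 or more libraries, without covariates. Count tests on 5 libraries (edgeR 4.0.16, DESeq2 1.42.0) were alternatives, beside other pseudocounts, filters, scalings, a replicate block, each library left out and, added after seeing the data, a trend in length and GC content removed (loess, span 0.5). The study's thresholds were kept. Positions and transcript lengths are from GENCODE M21 (GRCm38), matched by symbol for 14329 genes and by another symbol for 366. Neighbours and promoter windows are from RefSeq GRCm38.p6. Genes named were every *Gimap* row, the 3 tested genes on each side, the largest rise and fall in each list, the 5 genes most like the family and *Bach2*. Members and lists were chosen with earlier results of these data known.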

Additional observations from a re-analysis of the deposited data

How the results depend on the processing

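Every one of the 8 *Gimap* genes kept its sign under each of the 17 alternatives run on the fold changes, except *Gimap1*, which was -0.0302 without Bach2-cKO replicate 3. *Gimap1os* turned to -0.0439 without WT replicate 1, -0.0490 with edgeR and -0.0691 with DESeq2, which both left that library out. With 1 library left out *Gimap1* ran up to 0.206 and *Gimap1os* up to 0.733. The median of the 8 genes ran from -0.64 to -0.33 when 1 library was left out and from -0.62 to -0.29 in the other settings. Over the whole table limma called 0 genes higher and 0 lower in every setting, leaving out each library included (0 to 0 in both directions), and edgeR called 0. DESeq2 on 5 libraries called 33 higher (0.296%) and 54 lower (0.484%), and the cause was not tested. Of the *Gimap* genes, chosen on this contrast, 2 were among the lower, *Gimap4* and *Gimap7*, and 0 among the higher. Removing the length and GC trend changed the genes at an unadjusted p under 0.05 from 1157 lower and 1144 higher to 1064 lower and 520 higher.

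Whether the replicate numbers pair the samples was not settled here. Over all genes, the libraries numbered 1, 2 and 3 had correlations between their deviations of -0.0689, 0.116 and -0.0386. Within the family, replicate 3 was the highest library of its group for 7 of 8 genes in both groups. Neither pattern can show whether the samples were paired. A replicate block called 0 genes higher and 0 lower. Each *Gimap* gene had 669 to 12285 recovered reads a library, and each group has 3 libraries. Protein sequences and strand-specific counts were not analysed here.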
